A study of Mus musculus with 12 samples.

Results

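The 46 genes described here are the regulators of G protein signalling (RGS proteins) and the subunits of heterotrimeric G proteins. They were chosen by name, as genes whose single array symbol is Rgs, Gna, Gnb or Gng followed by a family designation, and they are 46 of the 18193 genes named on the array and 109 of its 45037 non-control probe sets. Rgs9, Gnal and Gng7 were left out of the group and are given at the end. The members are 18 RGS genes, 14 alpha, 5 beta and 8 gamma subunit genes, and Gnasas1, an antisense transcript of the Gnas locus that the name rule also matched and that encodes no subunit. Each gene is represented by its brightest probe set over the 12 arrays, and 29 members have more than 1 probe set.

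Affymetrix arrays measured RNA from whole striatum and from prefrontal cortex (PFC) of outbred male Swiss mice that could choose between water, 5% ethanol and 10% ethanol from 6 weeks of age. The schedule lasted 16 weeks, with 10 weeks of acquisition, 2 weeks of withdrawal, 2 weeks of reinstatement and 2 weeks in which ethanol was adulterated with 0.005 g/L quinine. The labels also name 1 more week of free choice and give an age of 22 weeks at the end. How that week fits these ages is not clear from them. The 4 groups, of 3 arrays each, are striatum of inflexible drinkers, striatum of light drinkers, PFC of inflexible drinkers and PFC of light drinkers. Inflexible and light are the study's drinking classes, with blood ethanol of 113 ± 11.3 mg/dL in inflexible drinkers and 48 ± 13.3 mg/dL in light drinkers (kind of error not stated). Both classes drank ethanol, and water controls were not analysed here. The labels give 1 concentration of pooled RNA per group, the same for its 3 arrays. The arrays of a group may therefore come from 1 pool of RNA, and the p-values below then cover only the spread between arrays.

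A heterotrimeric G protein carries the signal of a receptor in the membrane to enzymes and channels inside the cell. The activated receptor loads the alpha subunit with GTP, the alpha subunit and the beta-gamma dimer separate, and each acts on its own effectors. RGS proteins speed up the hydrolysis of GTP by the alpha subunit and so shorten the signal. In striatum and cortex these proteins stand downstream of dopamine, opioid, cannabinoid, muscarinic and metabotropic glutamate receptors.

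Promoter sequences are shown for Gng4, Gng2, Rgs2 and Rgs4, which are among the members that passed a test below. No window was available for Rgs20 and Rgs14, which also passed a test. The sequences are those of RefSeq (build GRCm38.p6), 5′ to 3′ on the strand of the gene, over 250 bases before and 50 bases after the annotated start. Capitals mark matches on either strand to the GC box (GGGCGG), to the core of the cyclic AMP response element (TGACG) and to the TATA box (TATAAA). The windows are chr13:13784057-13784356 on the plus strand for Gng4, at the downstream of its listed starts, chr14:19976644-19976943 on the minus strand for Gng2, chr1:144004100-144004399 on the minus strand for Rgs2 and chr1:169747593-169747892 on the minus strand for Rgs4.
Gng4: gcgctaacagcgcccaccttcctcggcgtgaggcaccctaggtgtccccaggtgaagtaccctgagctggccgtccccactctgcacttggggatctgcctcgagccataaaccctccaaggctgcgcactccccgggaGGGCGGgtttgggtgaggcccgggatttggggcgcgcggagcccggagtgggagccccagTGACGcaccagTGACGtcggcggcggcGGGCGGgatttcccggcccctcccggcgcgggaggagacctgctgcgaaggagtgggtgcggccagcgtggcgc
Gng2: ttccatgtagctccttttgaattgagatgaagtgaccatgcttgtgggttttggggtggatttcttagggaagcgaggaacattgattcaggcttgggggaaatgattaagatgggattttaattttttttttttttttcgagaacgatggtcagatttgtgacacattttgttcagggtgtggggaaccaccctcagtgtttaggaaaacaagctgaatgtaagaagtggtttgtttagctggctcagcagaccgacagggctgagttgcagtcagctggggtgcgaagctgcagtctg
Rgs2: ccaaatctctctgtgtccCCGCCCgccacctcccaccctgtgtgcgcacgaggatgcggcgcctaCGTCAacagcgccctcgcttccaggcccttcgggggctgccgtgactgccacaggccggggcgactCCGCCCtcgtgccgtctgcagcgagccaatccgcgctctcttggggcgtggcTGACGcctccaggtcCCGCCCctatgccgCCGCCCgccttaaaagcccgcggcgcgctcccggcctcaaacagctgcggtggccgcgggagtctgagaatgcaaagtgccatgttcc
Rgs4: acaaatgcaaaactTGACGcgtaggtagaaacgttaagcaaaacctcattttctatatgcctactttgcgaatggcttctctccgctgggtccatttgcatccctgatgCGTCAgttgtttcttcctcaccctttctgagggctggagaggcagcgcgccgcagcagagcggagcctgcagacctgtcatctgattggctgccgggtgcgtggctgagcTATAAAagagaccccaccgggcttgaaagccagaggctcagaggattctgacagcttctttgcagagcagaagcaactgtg

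The Gng4 window holds 2 TGACG matches and 2 GC boxes, and the Rgs2 window 2 TGACG matches and 4 GC boxes. The Rgs4 window holds 2 TGACG matches and 1 TATA box. The Gng2 window holds none of these letters, and neither does the window of the other listed Gng4 start, which overlaps the one shown. The promoter table holds 46 windows of 34 members, of which 24 (52.2%) hold a GC box, against 35.7% of all 32851 windows of this length. TGACG lies in 11 member windows (23.9%), against 20.8% of all windows, and TATAAA in 7 (15.2%), against 13.6%. The full cyclic AMP response element (TGACGTCA, which contains TGACG) lies in 0 member windows, against 1.79% of all windows, and the EGR motif (GCGGGGGCG) in 0, against 2.91%. A match is a run of letters, and binding was not measured. On the chromosomes, 10 members lie on chromosome 1, all of them RGS genes.

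Before the comparisons, 5 of the 12 arrays stood apart on the hybridisation controls spiked into every array. These were replicates 1 and 3 of striatum of inflexible drinkers, replicate 1 of striatum of light drinkers, and replicate 2 of each PFC group. Their mean control level was at least 8.36 on the log2 scale, against at most 7.06 on the other 7 arrays. Within groups, 20 of the 46 members differed between high-control and low-control arrays (9 higher, 11 lower), against 33.5% of named genes. Here and below a gene is called at a limma p under 0.05 after Benjamini-Hochberg adjustment over all probe sets. Among members with a mean above log2 4, a level used here to set low values apart, the count was 18 of 30, against 53.1% of such genes. The difference in log2 level was 1.35 ± 0.17 (SE) for the gamma subunit Gng3, 1.14 ± 0.22 for Gnao1, the alpha subunit of Go, and 0.93 ± 0.18 for the beta subunit Gnb1. It was -0.59 ± 0.06 for Gnb5, the beta subunit that pairs with RGS proteins of the R7 family. Gng4, Rgs20, Rgs2 and Rgs4 were not called for the split, whereas Gng2 (-0.21, adjusted p = 0.0353) and Gng10 (-0.13, adjusted p = 0.0314) were.

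**Figure D1:**
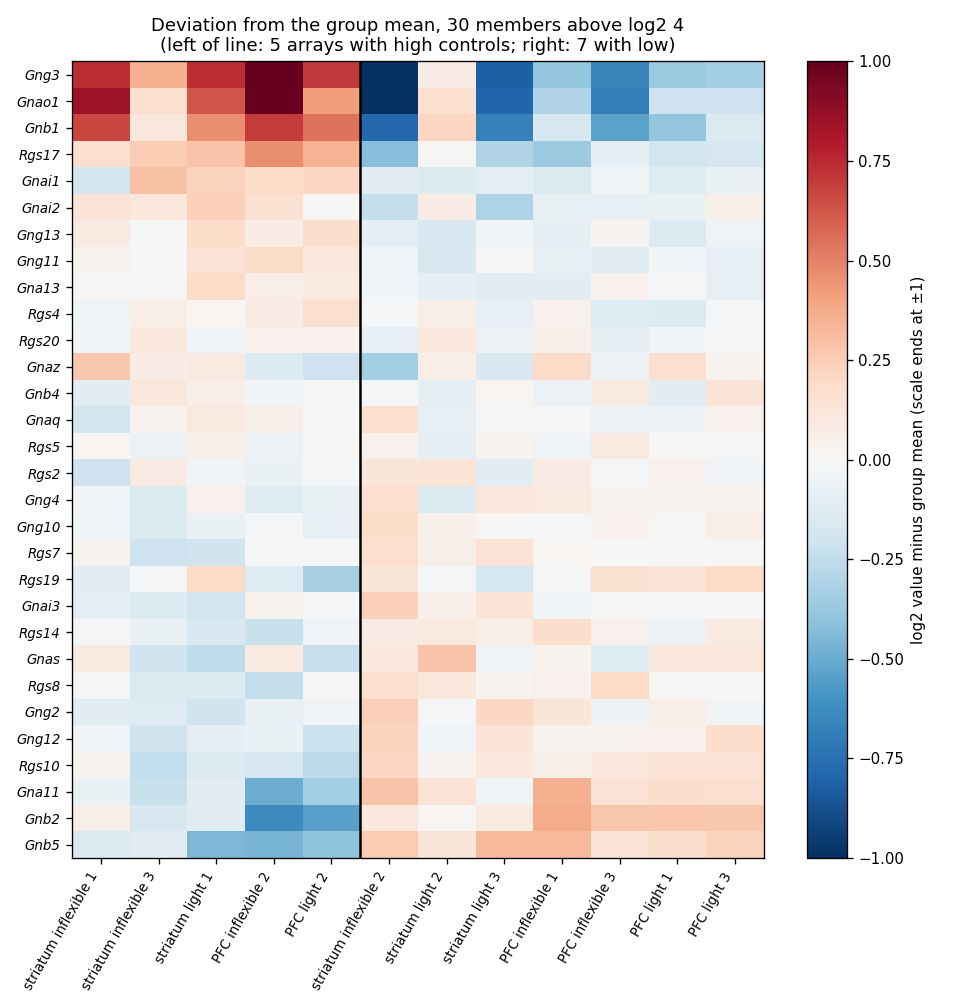
Heat map of the 30 members with a mean above log2 4 (rows) on the 12 arrays (columns), as log2 value minus the mean of the array's group, with the 5 high-control arrays left of the line and the 7 low-control arrays right of it. Gng3, Gnao1 and Gnb1, whose differences were 1.35, 1.14 and 0.93, stand at the top, and Gnb5, at -0.59, at the bottom.

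The first comparison asks how inflexible and light drinkers differed in PFC. Gamma subunits gave both calls: Gng4 was lower and Gng2 higher in inflexible drinkers. These are 2 of 46 members, against 1.04% of named genes, and 2 of 30 above log2 4, against 1.99% of such genes. No RGS, alpha or beta member was called. An unadjusted limma p under 0.05 was found for 11 of 46 members, against 1668 of 18193 named genes. Above log2 4 it was found for 9 of 30 members, against 971 of 6593 such genes. The median difference was -0.04 over all members and -0.12 over those above log2 4, against 0.00 over all named genes.

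Gng4 encodes a gamma subunit expressed in brain. Its log2 level was 5.66, 5.43 and 5.59 in PFC of inflexible drinkers, against 6.35, 6.26 and 6.36 in PFC of light drinkers. Every inflexible array lay below every light array. The difference was -0.76 ± 0.09 (SE, n = 3 arrays each), a linear ratio of 0.589, with a limma adjusted p of 0.0048. It was -0.73 on low-control arrays alone and -0.83 between the only high-control array of each group. A second probe set of Gng4 showed the same direction, with 3.47, 3.59 and 3.50 in inflexible drinkers, against 4.16, 4.18 and 4.09 in light drinkers (-0.62 ± 0.06, adjusted p = 0.0019). The remaining probe set of Gng4, with a mean of 3.43, differed by -0.02.

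Gng2 encodes a gamma subunit that is widely expressed in brain. Its log2 level was 6.42, 6.23 and 6.25 in PFC of inflexible drinkers, against 5.71, 5.61 and 5.62 in PFC of light drinkers, again without overlap. The difference was 0.65 ± 0.12, a ratio of 1.57, with an adjusted p of 0.0426. It was 0.67 on low-control arrays and 0.62 between the only high-control array of each group, and the second probe set of Gng2 differed by 0.39 (adjusted p = 0.187). Same-numbered PFC arrays deviated together, but replicate 2 is also the high-control array of both PFC groups. With the replicate number as a block Gng4 had an adjusted p of 0.0247 and Gng2 of 0.124. With a block of its own in each region the values were 0.0518 for Gng4 and 0.0839 for Gng2, which ended both calls. The Gng2 call was also lost when any 1 of the 6 PFC arrays was left out, or replicate 1 or 3 of striatum of inflexible drinkers or replicate 2 of striatum of light drinkers, with adjusted p up to 0.166.

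Other members did not pass the test. Gng10, a widely expressed gamma subunit, had 6.46, 6.46 and 6.53 in PFC of inflexible drinkers, against 6.10, 6.00 and 6.15 in PFC of light drinkers (0.40 ± 0.08, adjusted p = 0.0504). With the control split as a block its adjusted p was 0.0049. Gng12, another gamma subunit, had 4.48, 4.37 and 4.48 in inflexible drinkers, against 4.93, 4.67 and 5.06 in light drinkers (-0.44 ± 0.12, adjusted p = 0.206; 0.0157 with the control split as a block). The arrays of both genes did not overlap. Rgs2, which prefers the Gq alpha subunit, had 6.54, 6.39 and 6.45 in inflexible drinkers, against 6.17, 6.11 and 6.10 in light drinkers (0.34 ± 0.09, adjusted p = 0.197). Its other probe sets above log2 4 were split, with 0.34 at a mean of 6.12 and -0.25 at a mean of 5.16. Rgs20, selective for the Gz alpha subunit, differed by -0.23 ± 0.06 (adjusted p = 0.220). Gnaz, the alpha subunit of Gz, differed by -0.43 ± 0.16 (adjusted p = 0.483), and its second probe set by -0.06. In all, the arrays of 15 members did not overlap between classes, 5 higher and 10 lower in inflexible drinkers, against 14.1% of named genes, and of 12 of the 30 above log2 4, against 18.5%.

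Markers of other cells moved between the same PFC groups. In inflexible drinkers 6 of 15 medium spiny neuron markers were higher, with an array mean of 5.17 to 5.25, against 4.41 to 4.52 in light drinkers, and Penk averaged 6.95, against 5.37. Of oligodendrocyte markers 5 of 10 were higher (5.80 to 5.96, against 4.75 to 4.97). Of choroid plexus markers 1 of 7 was called, Ttr, at 10.78 ± 0.43 in inflexible drinkers and 4.53 ± 0.17 in light drinkers (SD, n = 3 each), while the other 6 had means up to log2 4. Of immediate early genes 4 of 13 were lower (4.77 to 4.84, against 5.17 to 5.33). Also lower were 2 of 10 interneuron, 1 of 8 microglia, 1 of 5 olfactory bulb and 1 of 3 blood cell markers. Of cortical excitatory markers 1 of 9 was higher, but the median difference over the 9 was -0.24. Their array mean was 5.125 to 5.478, against 5.41 to 5.667 in light drinkers. The 7 astrocyte, 8 endothelial or pericyte and 5 thalamic markers gave 0 calls. The part of these markers in the Gng4 and Gng2 results was not tested. In tissue RNA, fewer cells of a type and less RNA per cell cannot be told apart.

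The same comparison in striatum gave 0 called members, against 0.022% of named genes and 0.0303% of those above log2 4. The count stayed 0 under every alternative tried. An unadjusted limma p under 0.05 was found for 6 of 46 members, against 672 of 18193 named genes. All 6 were among the 30 above log2 4, against 315 of 6593 such genes. Rgs20 had log2 levels of 5.00, 4.96 and 5.16 in striatum of inflexible drinkers, against 4.58, 4.73 and 4.56 in striatum of light drinkers (0.42 ± 0.06, adjusted p = 0.163). Rgs2 had 6.99, 7.32 and 7.28 in inflexible drinkers, against 6.71, 6.87 and 6.63 in light drinkers (0.46 ± 0.09, adjusted p = 0.338). Neither gene's arrays overlapped at these probe sets. The other probe sets of Rgs2 above log2 4 differed by 0.76 and 0.10. Those of Rgs20, with means of 3.24 and 3.09, differed by 0.31 and 0.05. Rgs8, which acts on Gi and Gq, differed by 0.32 ± 0.11, and Gnb4, a beta subunit, by 0.28 ± 0.08 (adjusted p = 0.871). Gnaq, the alpha subunit that activates phospholipase C beta, had 6.76, 7.11 and 6.99 in inflexible drinkers, against 7.37, 7.19 and 7.25 in light drinkers (-0.32 ± 0.08, adjusted p = 0.724). Arrays of 6 members did not overlap between the classes, against 7.53% of named genes, and of 5 of the 30 above log2 4, against 6.37%. Medium spiny neuron markers were called for 1 of 15 (Arpp21, higher), but the median difference over the 15 was 0.42. Their array mean was 6.585 to 6.73 in inflexible drinkers, against 6.116 to 6.269 in light drinkers. The part of these markers in the striatal differences was not tested.

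**Figure D2:**
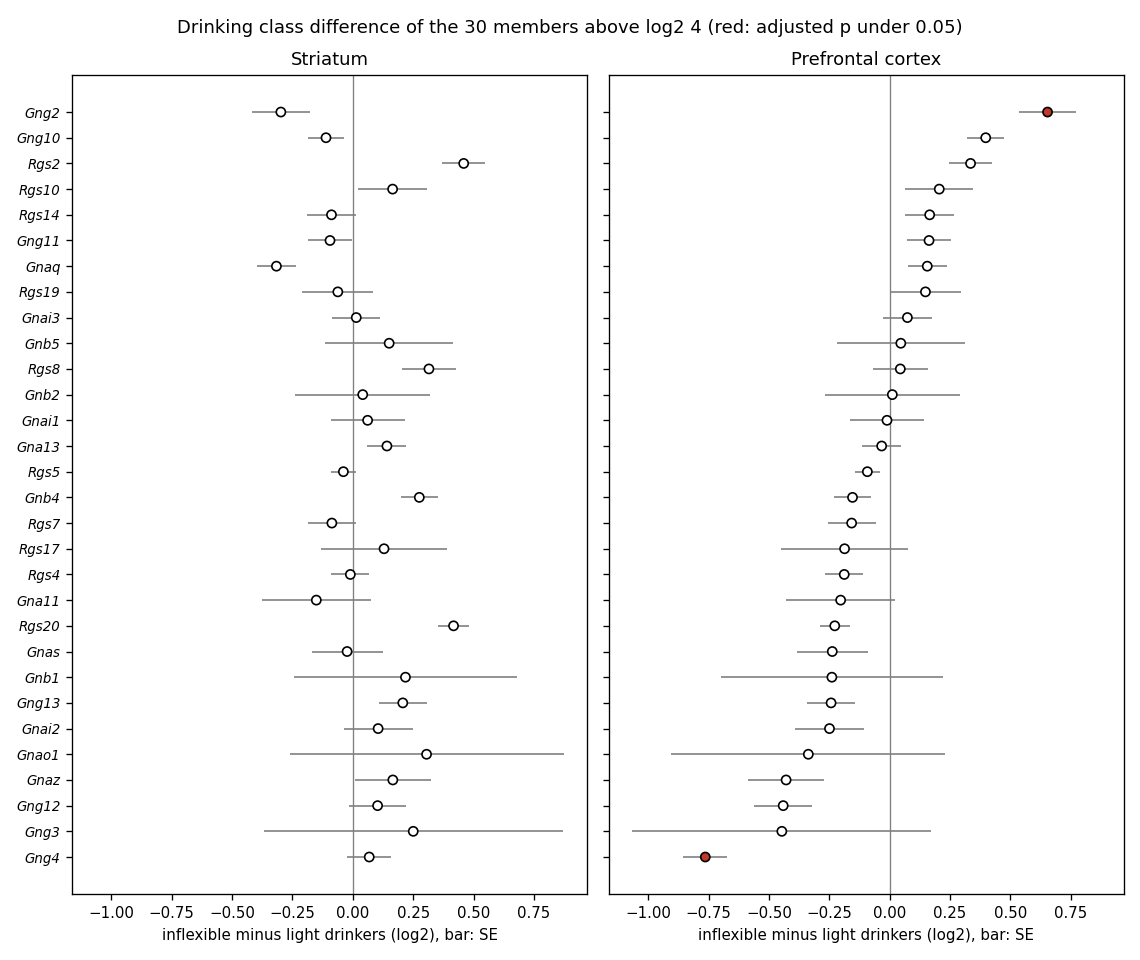
Inflexible minus light drinkers (log2, bars SE) for the 30 members above log2 4 in striatum (left) and PFC (right), in 1 order. Red points passed the test: Gng2 at 0.65 and Gng4 at -0.76, both in PFC.

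The interaction tests whether the class difference is larger or smaller in striatum than in PFC. It called 2 of 46 members, against 0.44% of named genes, both of them above log2 4, against 0.91% of such genes. For Rgs20 the striatal difference exceeded the PFC difference by 0.64 ± 0.09 (adjusted p = 0.0200), since it was 0.42 in striatum and -0.23 in PFC. It was 0.54 on low-control arrays and 0.73 on high-control arrays, though in both cases some groups are then a single array. For Gng4 the interaction was 0.83 ± 0.13 (adjusted p = 0.0368), from 0.07 in striatum and -0.76 in PFC, and its second probe set gave 0.69 (adjusted p = 0.0137). The second probe set of Rgs20 gave 0.29 (adjusted p = 0.999), and the remaining one of Gng4 gave 0.02. Both calls were lost under several alternatives, among them either replicate block. Gng2 had an interaction of -0.95 ± 0.17 (adjusted p = 0.0622), Gng10 of -0.51 ± 0.11 (adjusted p = 0.130), Gnaq of -0.47 ± 0.12 (adjusted p = 0.224), Gnb4 of 0.43 ± 0.11 (adjusted p = 0.254) and Gng12 of 0.54 ± 0.17 (adjusted p = 0.454), none of which passed.

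The regions were compared within each class. By their brightest probe sets, striatum had more Rgs2 and less Gng4 and Rgs4 than PFC in both classes. In inflexible drinkers 5 of 46 members were called, against 1.2% of named genes, all among the 30 above log2 4, against 2.56% (Rgs20, Rgs2 and Rgs8 higher in striatum, Gng4 and Rgs4 lower). In light drinkers 8 were called, against 4.68%, all above log2 4, against 8.81% (Gng10, Rgs2, Rgs14 and Gng2 higher, Gng4, Rgs4, Gng13 and Rgs7 lower). Arrays of the regions did not overlap for 15 members in inflexible drinkers, against 12.6% of named genes (14 above log2 4, against 16.8%), and for 18 in light drinkers, against 19% (16 above log2 4, against 26.5%). All 15 medium spiny neuron markers measured were higher in striatum in both classes. Oligodendrocyte markers were higher for 1 of 10 in inflexible drinkers and 10 of 10 in light drinkers, and choroid plexus markers for 0 of 7 in inflexible drinkers and 4 of 7 in light drinkers. Cortical excitatory markers were lower in striatum for 2 of 9 in inflexible drinkers, and 4 were lower and 1 higher in light drinkers. Interneuron markers were higher for 2 and lower for 2 of 10 in inflexible drinkers, and lower for 3 in light drinkers. Immediate early genes were lower for 0 of 13 in inflexible drinkers and 6 of 13 in light drinkers. The part of these markers in the member differences was not tested.

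Among gamma subunits, Gng4 had 4.66, 4.86 and 4.55 in striatum of inflexible drinkers and 4.67, 4.48 and 4.73 in striatum of light drinkers, below every PFC array given above. The difference was -0.87 ± 0.09 in inflexible drinkers (adjusted p = 0.0028) and -1.70 ± 0.09 in light drinkers (adjusted p = 1.4e-05). Its second probe set gave -0.22 in inflexible drinkers (adjusted p = 0.233) and -0.91 in light drinkers (adjusted p = 4.3e-05). Gng2 had 6.01, 6.20 and 6.41 in striatum of light drinkers, above the PFC of that class by 0.56 ± 0.12 (adjusted p = 0.0337). In striatum of inflexible drinkers it had 5.80, 6.15 and 5.78, and the difference was -0.39 ± 0.12 (adjusted p = 0.308). Gng10 was higher in striatum of light drinkers by 0.52 ± 0.08 (adjusted p = 0.0040), with a difference of 0.02 in inflexible drinkers. Gng13, a gamma subunit known from taste and olfactory cells, had 5.68, 5.35 and 5.47 in striatum of light drinkers, against 6.07, 6.39 and 6.17 in PFC (-0.71 ± 0.10, adjusted p = 0.0035), and differed by -0.26 in inflexible drinkers.

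Among RGS genes, Rgs2 was higher in striatum by 0.73 ± 0.09 in inflexible drinkers (adjusted p = 0.0064) and 0.61 ± 0.09 in light drinkers (adjusted p = 0.0045). Its other probe sets above log2 4 did not pass. They gave 0.88 and 0.99 in inflexible drinkers (adjusted p = 0.653 and 0.129) and 0.45 and 0.63 in light drinkers (adjusted p = 0.848 and 0.271). Rgs4, an RGS protein of cortical neurons that acts on Gi and Gq, had 6.26, 6.29 and 6.36 in striatum of inflexible drinkers, against 6.93, 6.96 and 6.76 in PFC (-0.58 ± 0.08, adjusted p = 0.0114). In light drinkers it had 6.33, 6.38 and 6.23 in striatum, against 6.93, 7.23 and 7.05 in PFC (-0.75 ± 0.08, adjusted p = 5.9e-04). The regions did not overlap in either class. The second probe set of Rgs4 gave -0.59 in inflexible drinkers (adjusted p = 0.321) and -0.90 in light drinkers (adjusted p = 0.0252). Rgs20 was higher in striatum of inflexible drinkers by 0.63 ± 0.06 (adjusted p = 0.0023), with PFC values of 4.46, 4.46 and 4.32, and differed by -0.02 in light drinkers. Its second probe set gave 0.21 in inflexible drinkers (adjusted p = 0.954), and the remaining one gave -0.04. Rgs8 had 4.99, 5.18 and 4.87 in striatum of inflexible drinkers, against 4.42, 4.13 and 4.57 in PFC (0.64 ± 0.11, adjusted p = 0.0366), a call lost when any of 10 of the 12 arrays was left out. Rgs14, a scaffold that also binds Gi alpha through a GoLoco motif, had 5.10, 5.35 and 5.31 in striatum of light drinkers, against 4.64, 4.67 and 4.79 in PFC (0.55 ± 0.10, adjusted p = 0.0159). Rgs7, an R7 family member that pairs with Gnb5, had 5.81, 6.07 and 6.15 in striatum of light drinkers, against 6.54, 6.54 and 6.54 in PFC (-0.53 ± 0.10, adjusted p = 0.0183). In light drinkers the Rgs7 call was lost without any 1 PFC array, the Rgs14 call without PFC replicate 1 or 2 or striatal replicate 2 or 3, and the Gng2 call without any 1 PFC array, striatal replicate 2 or 3, or PFC replicate 3 of inflexible drinkers. The Rgs4 call in inflexible drinkers was lost without replicate 1 of either region.

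Other members did not pass the regional test. In inflexible drinkers Rgs7 differed by -0.46 ± 0.10 (adjusted p = 0.0970), Gnaq by -0.34 ± 0.08 (adjusted p = 0.142), Rgs14 by 0.30 ± 0.10 (adjusted p = 0.420) and Gnb4 by 0.21 ± 0.08 (adjusted p = 0.488). With the control split as a block, Rgs7 had an adjusted p of 0.0424 and Rgs14 of 0.0301. In light drinkers the gamma subunit Gng11 had 4.85, 4.54 and 4.72 in striatum, against 4.29, 4.42 and 4.24 in PFC, without overlap (0.39 ± 0.09, adjusted p = 0.0602). Gng12 differed by -0.44 ± 0.12 (adjusted p = 0.101), Rgs8 by 0.37 ± 0.11 (adjusted p = 0.154), Rgs6, with a mean up to log2 4, by -0.22 ± 0.07 (adjusted p = 0.231) and Gnb4 by -0.22 ± 0.08 (adjusted p = 0.241). With the split as a block the adjusted p was 0.0034 for Gng11, 0.0062 for Gng12, 0.0152 for Rgs8 and 0.0479 for Rgs6.

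**Figure D3:**
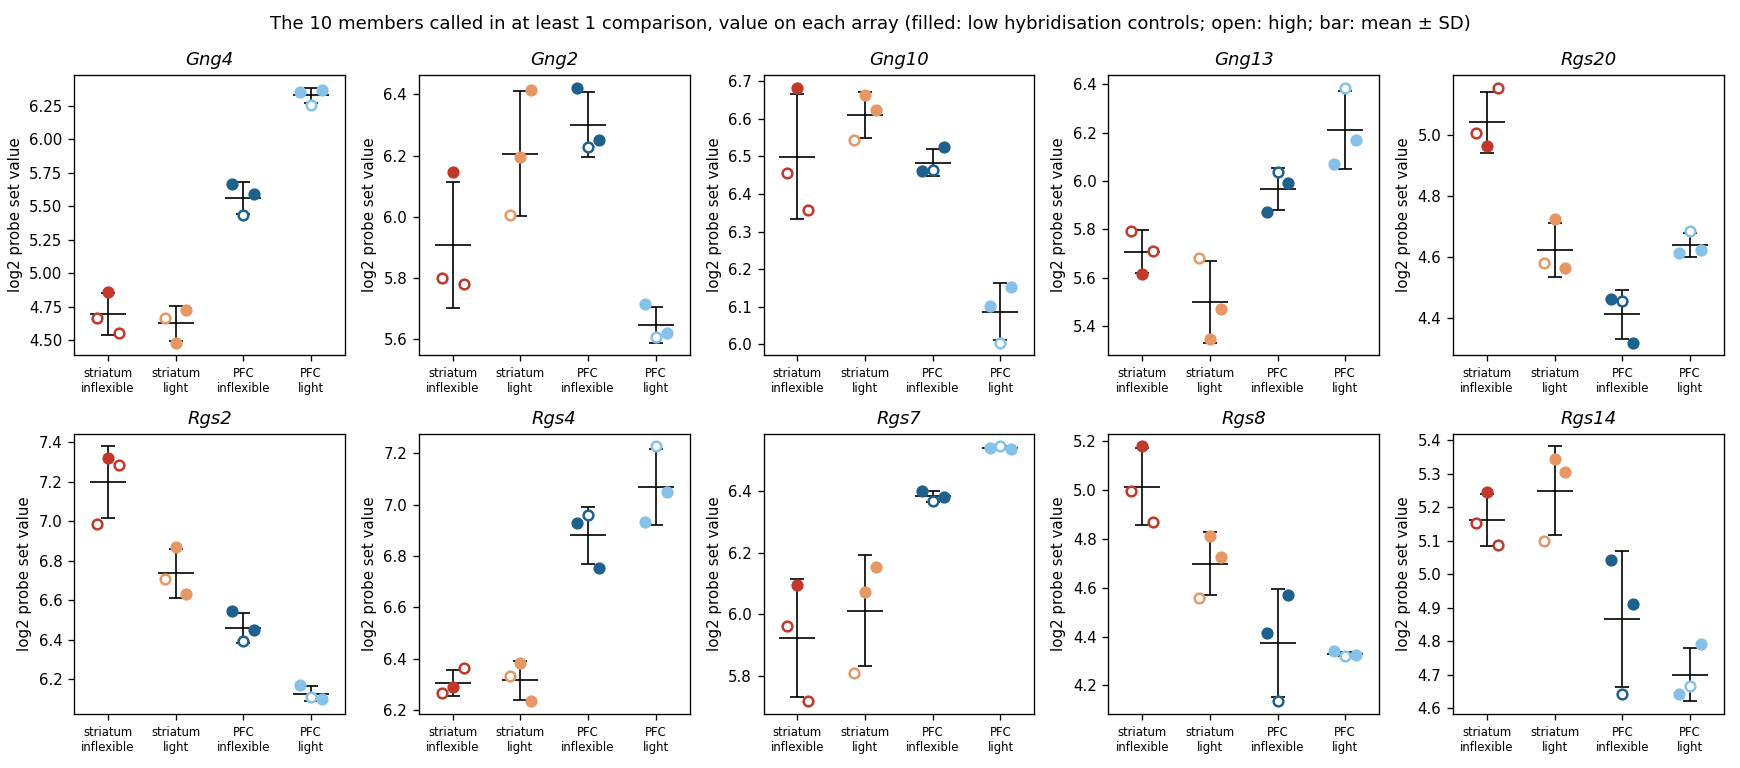
Log2 level on each array (points), with group mean and SD (bars), of the 10 members called in at least 1 comparison, with filled points for low-control and open points for high-control arrays. Gng4 was 4.48 to 4.86 in striatum and lay higher in both PFC groups, and Rgs2 was highest in striatum of inflexible drinkers.

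**Figure D4:**
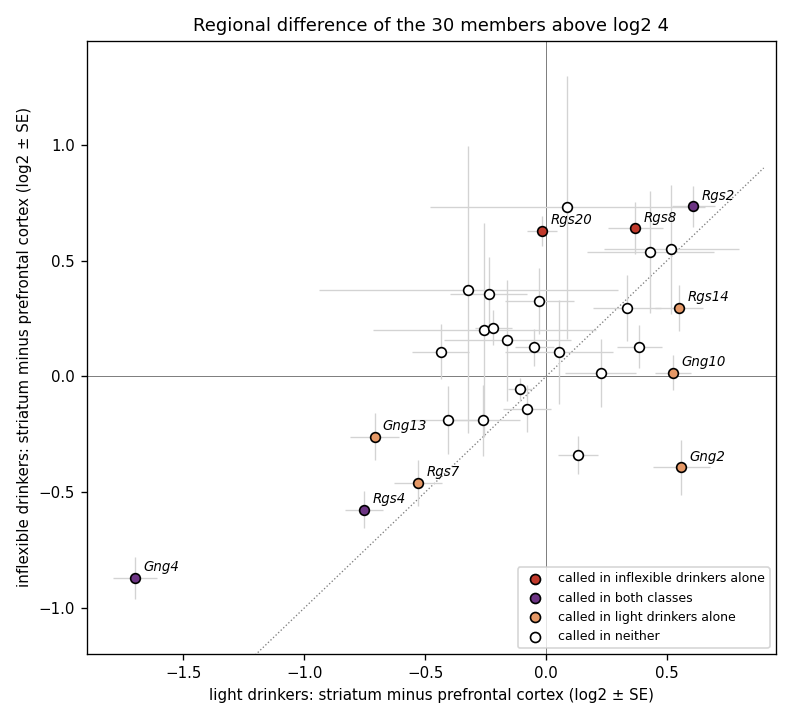
Striatum minus PFC in inflexible drinkers (vertical) against light drinkers (horizontal), log2 with SE, for the 30 members above log2 4, with the dotted line marking equal differences. Gng4, at -0.87 and -1.70, and Rgs2, at 0.73 and 0.61, lie at opposite ends.

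No alpha or beta subunit was called in any of the 5 contrasts, but some were under alternatives. With the control split as a block, the regional difference of Gnb5 was 0.73 ± 0.08 in inflexible drinkers (adjusted p = 0.0026) and 0.43 ± 0.08 in light drinkers (adjusted p = 0.0107). On low-control arrays, Gnb2 (0.30, adjusted p = 0.0216) and Gnai1 (-0.27, adjusted p = 0.0259) were called between regions in light drinkers. Array weights called Gnas and Gnaz between classes in PFC and Gnas and Gnb4 between regions in light drinkers, and the mean of all probe sets of a gene called Gnaq between regions in inflexible drinkers and in the interaction. The 5 brightest probe sets among members averaged 9.44 (Gnas, the Gs alpha subunit), 7.74 (Gnai1, a Gi alpha subunit), 7.32 (Gnb1), 7.20 (Gnao1) and 7.16 (Gnaq) over the 12 arrays, values that depend on the probe and give no order of abundance. Gnas averaged 9.47 ± 0.11 in PFC of inflexible drinkers and 9.70 ± 0.20 in PFC of light drinkers. Gnai1 averaged 7.85 ± 0.17 in PFC of inflexible drinkers and 7.86 ± 0.18 in PFC of light drinkers (SD, n = 3 each). Gnao1 spread from 6.14 to 7.83 over the 3 PFC arrays of inflexible drinkers. The 16 members with a mean up to log2 4, Gna12, Gna14, Gna15, Gnasas1, Gnat1, Gnat2, Gnb3, Gng8, Rgs1, Rgs3, Rgs6, Rgs11, Rgs12, Rgs13, Rgs16 and Rgs18, gave 0 calls in the 5 contrasts, and their class difference in PFC lay between -0.23 and 0.18. Over the 30 others, the regional difference in inflexible and in light drinkers, taken on separate arrays, correlated at Pearson r = 0.623 and a Spearman coefficient of 0.481 across genes, with the same sign in 19. Genes are not independent replicates.

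Genes around the G protein cycle gave 0 calls in either class comparison or the interaction: 0 of 14 effectors, 0 of 6 receptor kinases and arrestins, 0 of 14 chaperones, anchors and modulators and 0 of 6 other RGS-domain proteins. Plcb1, a phospholipase C beta activated by Gq, differed by 0.63 ± 0.13 between classes in PFC (adjusted p = 0.0693; 0.0119 with the control split as a block). Grk5, a receptor kinase, had an interaction of 0.41 ± 0.08 (adjusted p = 0.0845). Between regions, effectors were lower in striatum for 2 of 14 in both classes, chaperones, anchors and modulators higher for 1 of 14 in both, other RGS-domain proteins higher for 0 of 6 in inflexible drinkers and 1 of 6 in light drinkers, and receptor kinases and arrestins gave 0 calls. Plcb4, another phospholipase C beta, was lower in striatum, with differences of -0.97 in inflexible drinkers (adjusted p = 0.0422) and -1.32 in light drinkers (adjusted p = 0.0026). Kalrn differed by -0.50 in inflexible drinkers (adjusted p = 0.0343) and -0.48 in light drinkers (adjusted p = 0.0137). Snx25 differed by 0.37 in inflexible drinkers (adjusted p = 0.0780) and was higher by 0.41 in light drinkers (adjusted p = 0.0174). Gprin3, a G protein binding protein of neurites, was higher in striatum by 0.85 in inflexible drinkers (adjusted p = 0.0321) and by 0.86 in light drinkers (adjusted p = 0.0096). Of the genes left out of the group, Rgs9, the RGS protein of striatal neurons, was higher in PFC of inflexible than of light drinkers by 0.90 ± 0.12 (adjusted p = 0.0100). Gng7, the gamma subunit of the striatal Golf protein, differed by 0.86 ± 0.27 (adjusted p = 0.339), and Gnal, its alpha subunit, by 0.22 ± 0.24.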

How the data were processed

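The authors deposited 1 table of log2 probe set values for 12 arrays; the submitters' processing notes name RMA and affy without versions, and the log base was read from the values, since no label states it. Of 45101 probe sets, 64 controls were left out; 34945 have 1 gene symbol in the platform annotation, 932 several and 9160 none. Group means over all 12 arrays (8 residual degrees of freedom) were fitted with limma 3.58.1 in R 4.3.3 (lmFit, eBayes), two-sided, with Benjamini-Hochberg adjustment over 45037 probe sets and a threshold of 0.05. Counts over named genes use each gene's brightest probe set. An exact permutation test of 3 against 3 arrays cannot go below 0.1. The number of arrays limits the precision.

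The members and lists were chosen with earlier results of these data known. Every called member is named, and of the others the 5 with the smallest p in each contrast and the 5 brightest. Same-numbered arrays deviated together between PFC groups (r = 0.741, 0.849 and 0.622) but not in every pair in striatum (0.25, 0.262 and -0.637), nor in every pair between regions. In PFC, replicate 1 of inflexible drinkers matched replicate 3 of light drinkers best. Replicate number and control split cannot be fully told apart there. On simulated data for the PFC comparison, over 45037 probe sets, 16% of 200 changes of 0.5 and 66.5% of 200 changes of 1 (log2) were recovered. Alternatives were other normalizations, other probe sets, array weights, eBayes with trend and robust, blocks, the control split and leaving out each array.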

Additional observations from a re-analysis of the deposited data

Results flagged for a closer look

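The class difference of Gng4 and of Rgs20 differed between striatum and PFC by the interaction test. For Gng4 the interaction was 0.83 (limma adjusted p = 0.0368), with 0.07 in striatum and -0.76 in PFC. For Rgs20 it was 0.64 (adjusted p = 0.0200), with 0.42 in striatum and -0.23 in PFC. Groups of 3 arrays were not screened for single outlying arrays.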

How the results depend on the processing

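No called difference of a member changed sign under any alternative tried. Some differences that were not called did, and not only those near 0. The class difference of Gnao1 in striatum (0.31) was -0.39 on low-control arrays, and that in PFC (-0.34) was 0.24 on high-control arrays. For Gng3 in striatum the class difference (0.25) was -0.47 on low-control arrays. Nearer 0, the class difference of Gng4 in striatum (0.07) was -0.06 on high-control arrays. The regional difference of Rgs20 in light drinkers (-0.02) was 0.03 on low-control arrays, and that of Gng10 in inflexible drinkers (0.02) was -0.06 on high-control arrays. The median regional difference in light drinkers (-0.02) ran from -0.03 to 0.01 when 1 array was left out. The number of called members in PFC between classes, 2 in the report, was 1 with the second brightest probe set (29 members), with trend and robust eBayes and with the replicate block, 10 with array weights, 4 with the control split as a block, 5 on low-control arrays alone, and 0 on high-control arrays alone (1 residual degree of freedom) and with a replicate block within each region; leaving out 1 array gave 1 to 3. The interaction, 2 in the report, gave 1 with the second brightest probe set, 4 with array weights, 5 with the control split as a block, 0 with trend and robust eBayes, with either replicate block and on low-control or high-control arrays alone, and 0 to 3 when 1 array was left out. The Rgs20 interaction was also lost under quantile normalisation, with the mean of all probe sets of a gene, and without replicate 3 of PFC of inflexible drinkers, replicates 1 or 3 of PFC of light drinkers, replicate 1 of striatum of inflexible drinkers, or replicates 1 or 3 of striatum of light drinkers, and the Gng4 interaction without any of 11 of the 12 arrays. Between regions in inflexible drinkers, 5 in the report, the count was 0 with the second brightest probe set, with only the groups compared and on high-control arrays alone, 10 with the control split as a block, 2 on low-control arrays alone, and 3 to 6 when 1 array was left out. In light drinkers, 8 in the report, it was 2 with the second brightest probe set, 14 with array weights and with the control split as a block, 15 on low-control arrays alone, 5 with only the groups compared, 0 on high-control arrays alone, and 5 to 9 when 1 array was left out. Between regions, same-numbered arrays correlated at -0.12, -0.769 and -0.547 in inflexible drinkers and at -0.662, -0.511 and 0.602 in light drinkers, not over 0.1 in every pair, and the replicate block gave 4 called members in inflexible and 6 in light drinkers. The share of all genes called under each alternative is not given here, so these shifts in count are not read as particular to the members. Their cause was not tested. On low-control arrays, striatum of inflexible drinkers has 1 array, assumed to vary like the other groups. On high-control arrays, every group except striatum of inflexible drinkers has 1 array. The high-control and within-region alternatives were chosen after seeing the data.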

Other observations

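Like Rgs20, Gnaq had, at its brightest probe set, arrays that separated the classes in opposite directions in striatum and PFC. In striatum every inflexible array lay below every light array, by -0.32 ± 0.08 (SE), and in PFC every inflexible array lay above every light array, with 7.29, 7.35 and 7.23 in inflexible drinkers, against 7.08, 7.15 and 7.18 in light drinkers (0.16 ± 0.08). The interaction did not pass the test (limma adjusted p = 0.224).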
